A study of Zea mays with 2 samples.

Results

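Stem transcripts with a lower signal in the maize dwarf mutant D11 than in its wild type (WT) were chosen by their WT signal and by the ratio of WT to D11 on the Affymetrix Maize Genome Array. A probe set, the group of short oligonucleotides that reads 1 transcript on the array, was a member where its WT signal was at least 150 and the WT signal was at least 3-fold the D11 signal. D11 signals under 24.7, the highest signal of control probe sets with no maize target, were raised to 24.7 first. This rule took 116 of 17555 maize probe sets, or 1.27% of the 9099 with a WT signal of at least 150. The members were selected on these same values, so their ratios are a description and this percentage carries no meaning of its own.

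The WT was the inbred line Mo17, and both stems were collected at tassel emergence from untreated plants. D11 is a dominant dwarf, first seen among the offspring of Mo17 and the inbred line HN06 and then backcrossed to several inbred lines. The nuclear background of the D11 plants used for the array, and how many plants gave each RNA, are not given in the sources used here. There was 1 array per genotype, so no difference has a replicate check and no test was made, and effects of D11, of a different background and of a single plant or hybridization cannot be told apart.

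A maize stem lengthens as internode cells enlarge. Their walls are loosened and extended while water enters the vacuole, partly through aquaporins, the water channels of the plasma membrane (PIP proteins) and of the vacuole membrane (TIP proteins). Wall proteins such as proline-rich and germin-like proteins are laid down outside the cell, and gibberellin is a known promoter of internode growth.

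The signals are MAS 5.0 intensities on a linear scale. A value is given as WT then D11, and the ratio is WT over D11. Signals of different probe sets depend on their oligonucleotides and were not read as amounts of different transcripts. The median signal of maize probe sets was 167.9 in WT and 192.1 in D11. The 63 probe sets of spiked bacterial transcripts differed by at most 1.38-fold, with an SD of 0.20 for their log2 ratios. Over the probe sets with a WT signal of at least 150 the log2 ratio of D11 to WT had a median of 0.02 and an SD of 0.59. The 18S rRNA probe set had 5872 in WT and 2890 in D11. As marks of stem tissue, all 4 probe sets for secondary wall enzymes were above the controls in both arrays, with summed signals of 17037 and 15276. The 4 probe sets for shoot meristem genes had summed signals of 2478 in WT and 3064 in D11. The 8 probe sets listed for root genes were of piip1, piip2 and zrp4. Their summed signals were 582.4 in WT and 13664 in D11. The D11 sum was carried by 3 probe sets of piip1 (3748, 2913 and 6405), each at least 3-fold higher in D11. Of all probe sets with a D11 signal of at least 150, 2.99% were at least 3-fold higher. The same piip1 probe sets are also listed for structural wall proteins. The zrp4 probe set had 20.1 in WT, at control level, and 32.9 in D11. No share of root tissue is read from these sums. Of 8 probe sets for floral organ genes, 7 were at control level in both arrays, but the AGAMOUS-like gene ZMM2, which that list leaves out, had 106.6 in WT and 19.9, at control level, in D11. A lower signal in bulk tissue can come from fewer cells of a type or from less RNA per cell, and these cannot be told apart here.

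Members differed widely in WT signal and much less in ratio. Their WT signals ran from 157.5 to 6824 with a median of 764.1, and their D11 signals from 1.10 to 2058 with a median of 172.6. In WT, 114 of the 116 were above the array median, and in D11 54 still were. The lowest WT signal that the rule allowed was brighter than 48.17% of the array. The WT count was thus nearly fixed in advance. The rule also required a lower D11 signal, so nothing is read from either count. The median ratio was 3.65. A ratio of 3 to 4 was found for 71 members, 4 to 5 for 18, 5 to 10 for 20 and 10 or more for 7. Thus most members lay near the limit of the rule, as the plot of all signals shows. In 5 members the D11 signal was no higher than the controls, and their ratios are lower bounds.

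**Figure D1:**
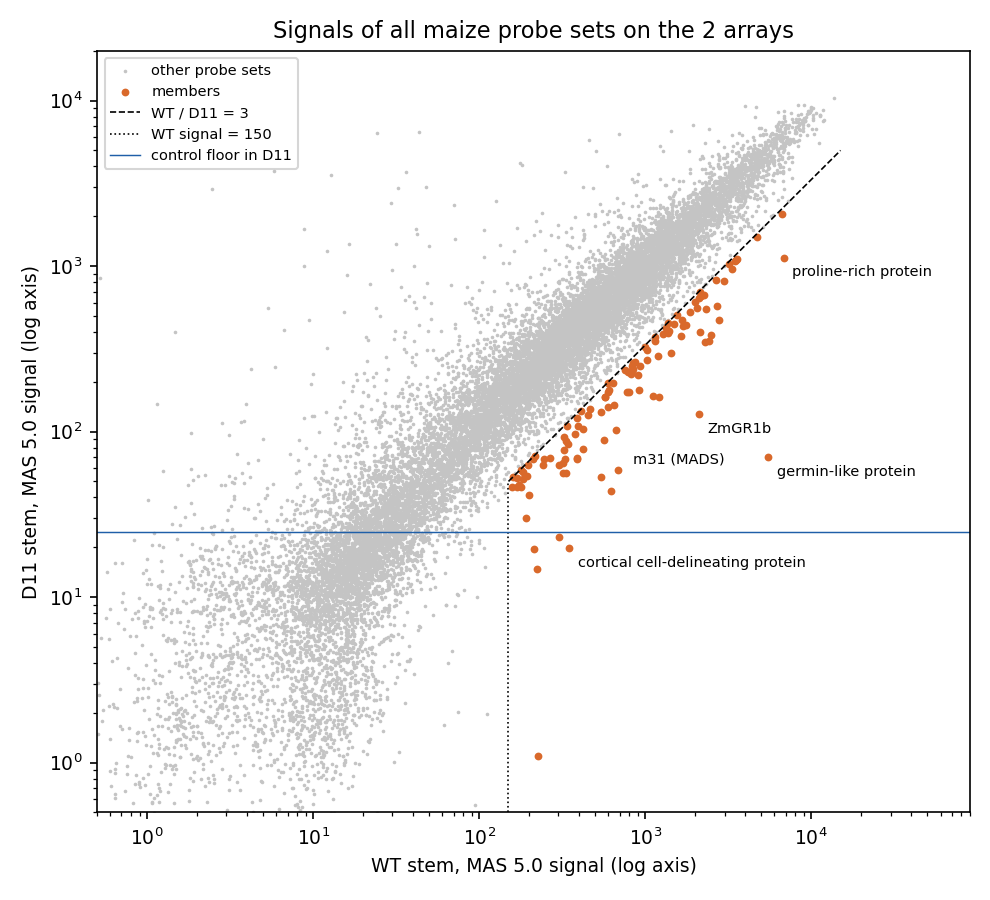
WT signal (x axis) against D11 signal (y axis) of every maize probe set, as MAS 5.0 intensities on log axes, with the 116 members in orange and 5 of the named members labelled. The members form a band along the dashed line at a ratio of 3, and of those above the control floor the germin-like protein, at 5516 and 70.3, lies farthest from it.

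Turning the rule around gave a larger number. With a D11 signal of at least 150 and a D11 signal at least 3-fold the WT signal (WT signals under 27.6 raised to 27.6), 286 of 9553 probe sets, or 2.99%, were higher in D11. The lower transcripts were thus 28.9% of all that passed in either direction. When both arrays were scaled to the same median, which moved the overall median of the log2 ratios by 0.19, the counts were 185 lower and 227 higher, and the share was 44.9%.

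By WT level, 43 of 3958 probe sets with a WT signal of 150 to under 500 were members (1.09%). There were 49 of 3726 at 500 to under 2000 (1.32%) and 24 of 1415 at 2000 and over (1.7%). The median ratios of the members were 3.83, 3.55 and 3.56 from the lowest to the highest level. A ratio of at least 5 was reached by 11, 8 and 8 members. In the same ranges of WT signal, the transcripts at least 3-fold higher in D11 numbered 62, 25 and 0. Since the levels are set by the WT signal, on which the members were chosen, they favor lower transcripts at the top and higher ones at the bottom, and no direction is read from these counts. The median log2 ratio of D11 to WT over all probe sets also changed with the level, from 0.15 at the lowest to -0.19 at the highest, and its part in these counts was not tested.

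A gene name was at hand for 21 members, 7 more were annotated as putative uncharacterized proteins and 88 had no name. The annotations of 24 members came from the study's list of changed genes, which was itself made by a 5-fold ratio on these arrays. Named members thus had larger ratios by construction, with a median of 6.47 against 3.52 for members with no name. The table of gene symbols, which did not depend on the ratio, covered 819 probe sets with a WT signal of at least 150, and 7 of these (0.855%) were members.

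**Figure D2:**
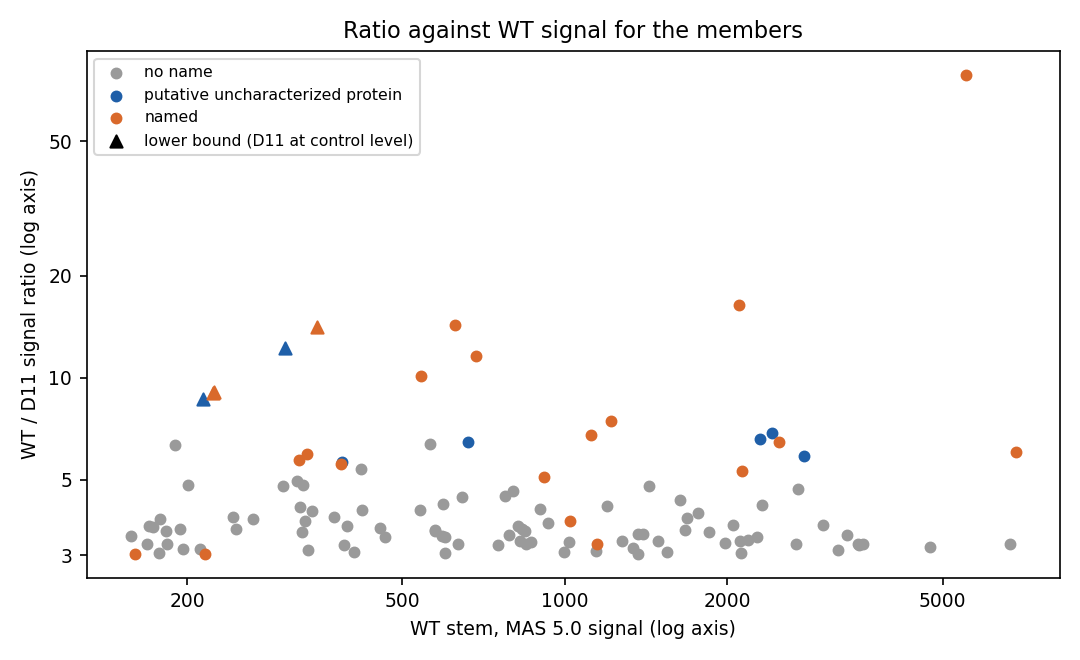
Ratio of WT to D11 signal (y axis, log) against WT signal (x axis, log) for the 116 members, colored by annotation, with triangles for lower bounds. Of the 27 members with a ratio of at least 5, 17 are named, 7 are uncharacterized proteins and 3 have no name.

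Cell wall and secreted proteins were the annotated group with the brightest signals, and its 5 members had ratios from 5.30 to 78.5. The germin-like protein LOC100272933, of a family of cupin glycoproteins in the cell wall, had a signal of 5516 in WT and 70.3 in D11. Its ratio of 78.5 was the largest of the 111 members with a D11 signal above the controls. In WT this probe set was brighter than 98.7% of the array, and in D11 it was below the array median. A proline-rich protein (LOC542000), of a kind that is built into the wall, had 6824 and 1125, a ratio of 6.06. It was the brightest member in WT and stayed well above the array median in D11.

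A disease resistance response protein (LOC100282340), of a kind known from pea, had 2129 in WT and 401.6 in D11, a ratio of 5.30. Chemocyanin (LOC100283238), a small secreted copper protein, had 1117 and 164.7, a ratio of 6.78. A cortical cell-delineating protein (LOC100286204), whose name comes from the cortex of the maize root, had 348.6 in WT and 19.9 in D11. The last value is at control level, so this transcript was at least 14.1-fold lower in D11.

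**Figure D3:**
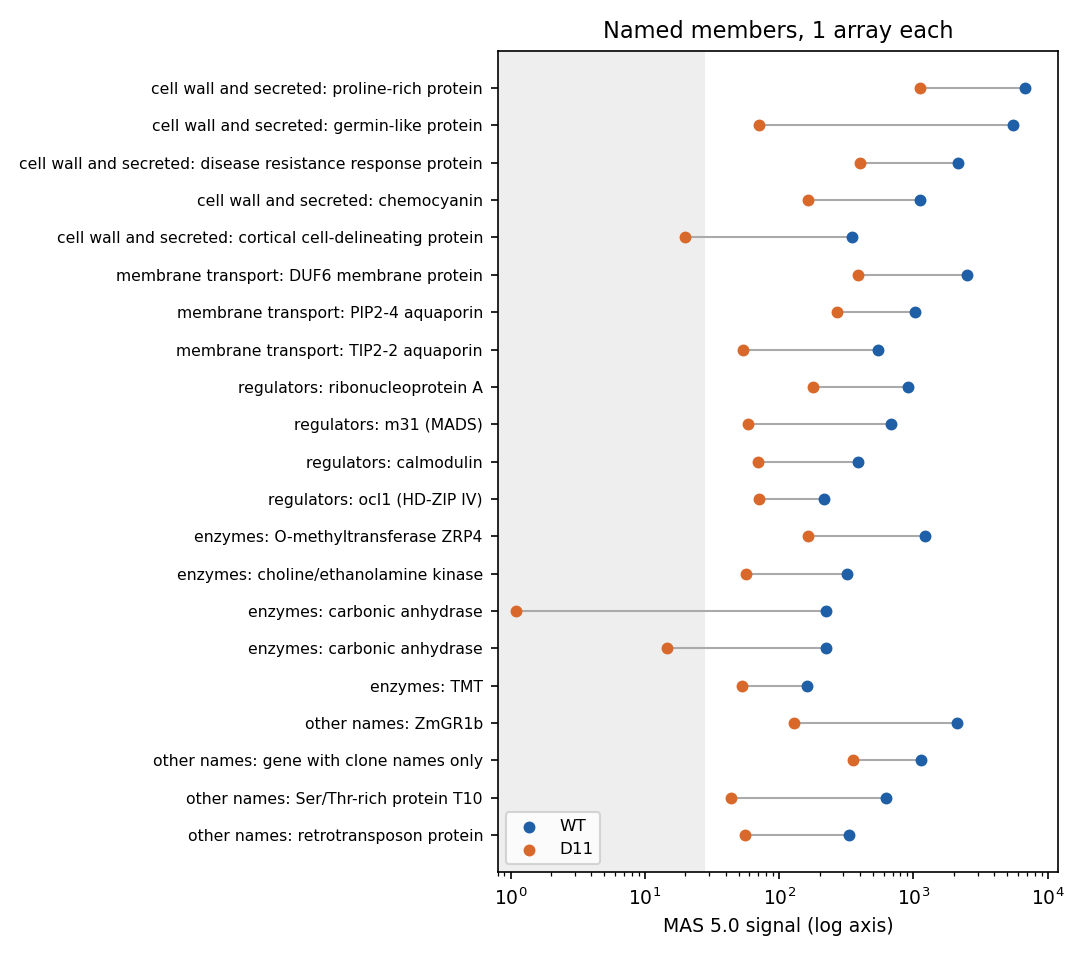
WT (blue) and D11 (orange) signals of the 21 named members on a log axis, by function group, with 1 array for each point and no error bars. The grey band ends at the highest control signal of the WT array, 27.6, and 3 of the D11 points, for the cortical cell-delineating protein and both carbonic anhydrase probe sets, lie inside it.

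Probe sets with the same annotations did not all go the same way. These annotations, and that of ZRP4 below, come from the study's list made by a 5-fold ratio on these arrays. Relatives that changed little could therefore not appear under them. Another cortical cell-delineating protein, LOC100283104, had 162.8 in WT and 1241 in D11 and was 7.63-fold higher in D11. In piip1 (LOC542597), which carries this annotation too, the probe set with the highest D11 signal had 24.2 in WT and 6405 in D11. The probe sets of piip1 disagreed, since another had 406.6 and 457.0 and a weaker probe set had 39.5 and 26.5. Another proline-rich protein, LOC100283196, had 111.7 in WT and 1.98 in D11 and was at least 4.52-fold lower, and the glycine-rich protein GRP5 (LOC542556), with 93.8 and 0.553, was at least 3.80-fold lower. Both had WT signals under 150 and are not members. A further probe set for GRP5, by its ID, had 36.6 in WT and 18.8, at control level, in D11. LOC100280774, a glycine-rich cell wall structural protein, went the other way. It had 0.519 in WT, at control level, and 844.7 in D11 by 1 probe set, and 8.76 and 1004 by another. The gene prcw1 (LOC542467), also named PRP, had 6837 in WT and 8052 in D11 by 1 probe set and 9400 and 6220 by another. The other germin-like protein with this annotation (LOC100273345) was at control level in WT, so a lower signal could not have been seen. Of the 12 probe sets listed for structural wall proteins, 4 had a WT signal of at least 150 and 1 of them was a member. In the other direction, 3 probe sets, all of piip1, were at least 3-fold higher in D11. Of all probe sets with a WT signal of at least 150, 1.27% were members. Of all with a D11 signal of at least 150, 2.99% were at least 3-fold higher. Nothing is read from the small counts of this list. For wall-modifying and cellulose-making enzymes there were 35 probe sets. Of these, 23 had a WT signal of at least 150 and 0 were members, beside 1.27% of all such probe sets. A list of this size need not hold any, and nothing is read from that count. The median log2 ratio of D11 to WT over these 23 was -0.26. The largest ratio among these 23 was that of the expansin gene expA4, 2.12 from signals of 1042 and 491.9.

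The membrane proteins among the members numbered 3, and 2 of them were aquaporins. The aquaporin gene TIP2-2 (LOC541895), for a channel of the vacuole membrane, had 542.4 in WT and 53.4 in D11, a ratio of 10.2. Its close relative by name, TIP2-1 (LOC541894), had 594.6 and 357.4, a ratio of 1.66. TIP1-1 (LOC541675) had 5229 and 3304, a ratio of 1.58. TIP4-4 (LOC542647) went the other way, with 122.4 in WT and 705.1 in D11. Of 10 TIP probe sets, 3 had a WT signal of at least 150, and TIP2-2 was the 1 member. Of all probe sets with that WT signal 1.27% were members, and nothing is read from 1 in a list this short.

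The plasma membrane aquaporin gene PIP2-4 (LOC541890) had 1024 in WT and 269.8 in D11, a ratio of 3.79. Of 16 PIP probe sets, 10 had a WT signal of at least 150 and PIP2-4 was the 1 member. The brightest, pip1-2 (LOC541779), had 11236 and 8061, a ratio of 1.39. PIP2-6 (LOC541891) had 112.6 and 510.7 and was 4.54-fold higher in D11. Among 10 probe sets of the NIP and SIP aquaporins, 2 were at least 3-fold higher in D11. Of all probe sets with a D11 signal of at least 150, 2.99% were, and nothing is read from these 2. A WT signal of at least 150 was found for 7 of the 10, and 0 were members. With 1.27% of all such probe sets being members, nothing is read from this count or from the 1 PIP member. The third membrane protein, LOC100192101, annotated by its DUF6 domain, had 2487 and 384.2, a ratio of 6.47.

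**Figure D4:**
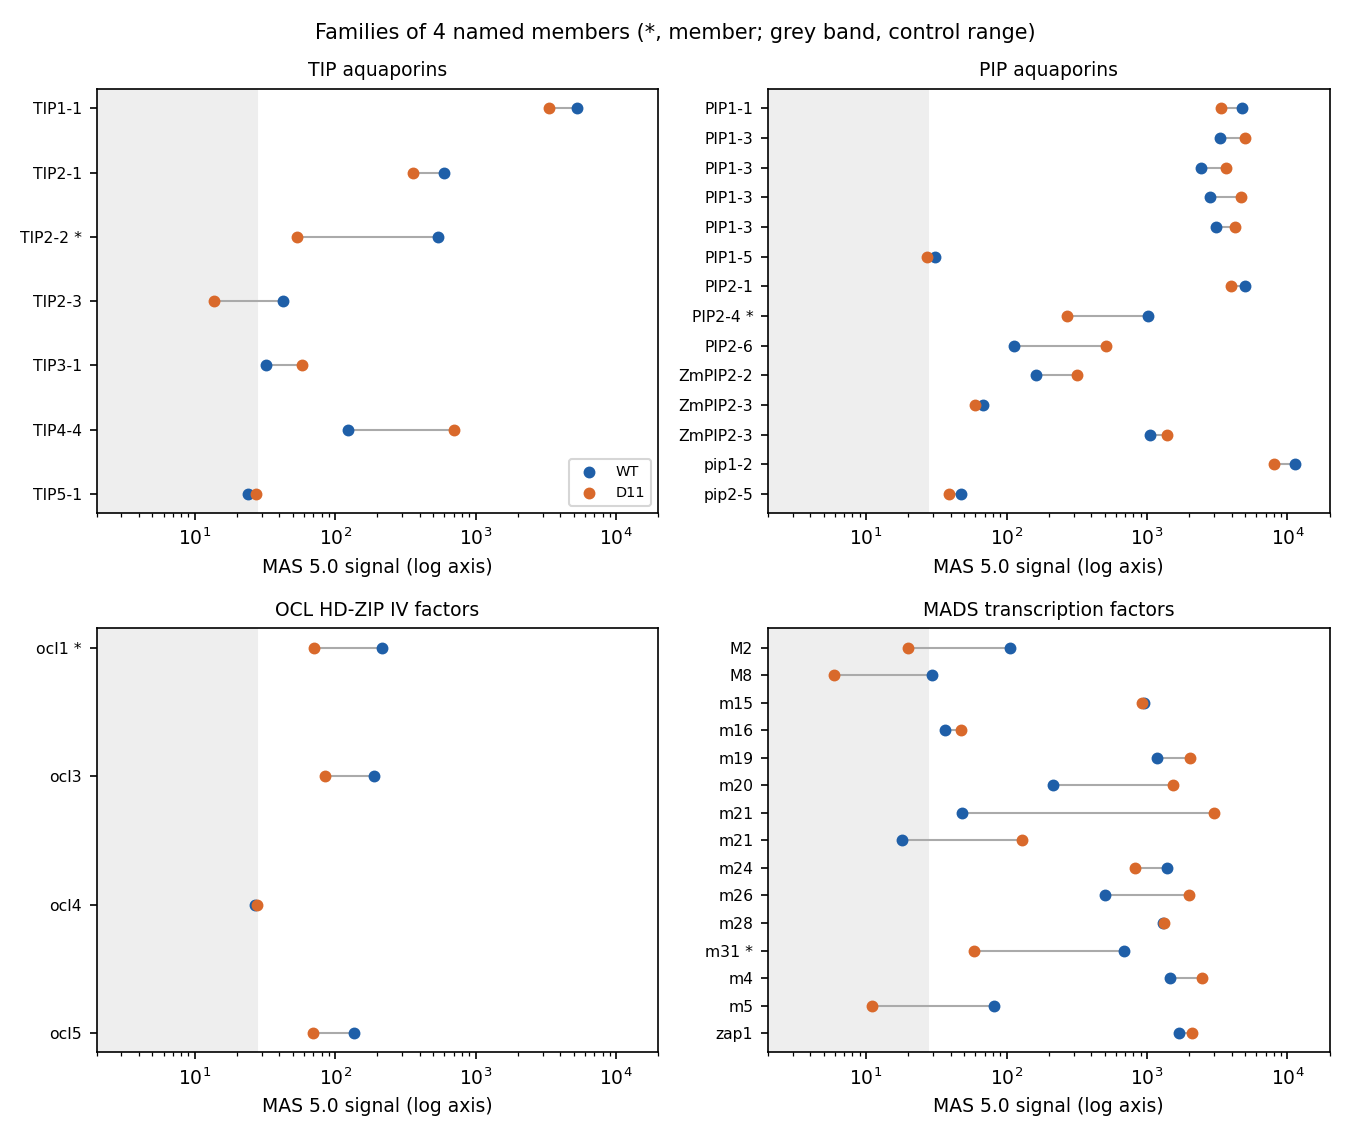
WT (blue) and D11 (orange) signals on log axes for the probe sets of 4 families that hold a named member (marked with an asterisk), leaving out those at control level in both arrays. The member is the probe set with the widest gap to the left in the TIP, PIP, OCL and MADS panels among those with a WT signal of at least 150.

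Among regulators, the MADS-box gene m31 (zmm31, LOC542040) had the largest ratio. MADS-box proteins are transcription factors known for setting the identity of meristems and floral organs. The signal of m31 was 685.3 in WT and 59.0 in D11, a ratio of 11.6. Of 32 MADS probe sets, 17 were at control level in both arrays and 9 had a WT signal of at least 150. Among these 9, m31 was the 1 member, and m24 (LOC542038) was next with 1379 and 822.4, a ratio of 1.68. Of all probe sets with that WT signal 1.27% were members, and nothing is read from 1 in a list of 9. In the other direction, m21 (LOC542035) had 48.1 in WT and 3007 in D11, m26 (LOC542044) had 499.6 and 2004, and m20 (LOC542034) had 214.5 and 1533. These were the 3 MADS probe sets that passed the rule turned around. Of all probe sets with a D11 signal of at least 150, 2.99% passed it. Below a WT signal of 150, ZMM2 (LOC100037764), an AGAMOUS-like gene, had 106.6 in WT and 19.9 in D11 and was at least 4.32-fold lower, and m5 (LOC542042) had 81.4 and 11.1, at least 3.30-fold lower. The MADS genes with a signal in these stems thus differed in both directions.

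The homeobox gene ocl1 (LOC542468), an HD-ZIP IV transcription factor of the outer cell layer of maize organs, had 215.7 in WT and 71.2 in D11. Its ratio of 3.03 is just inside the limit. Of the other 4 OCL probe sets, ocl3 (LOC542008) had 189.2 and 84.5, a ratio of 2.24, and ocl5 (LOC542010) had 135.7 and 69.5, a ratio of 1.95. All 3 signals in WT were weak, and the other OCL probe sets were at or near control level in both arrays. A ribonucleoprotein A (LOC100285364), by its name an RNA-binding protein, had 916.4 and 179.2, a ratio of 5.12. A calmodulin (LOC100280813), a calcium sensor, had 386.0 and 69.1, a ratio of 5.59. The 3 other calmodulin probe sets with a WT signal of at least 150 had ratios from 1.11 to 1.35, such as CaM2 (LOC542533) with 4460 and 3651.

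The enzymes among the members acted in different pathways. A probe set annotated as the O-methyltransferase ZRP4 (LOC100303908), an enzyme first described in maize roots, had 1217 in WT and 162.9 in D11, a ratio of 7.47. A second probe set with the same annotation had 330.3 and 3701 and was 11.2-fold higher in D11. The study's gene models place both in LOC100303908, so no direction can be given for this gene. The gene that carries the symbol zrp4 (LOC542706) has a probe set of its own, with 20.1 in WT, at control level, and 32.9 in D11. A choline/ethanolamine kinase, which phosphorylates the head groups used for membrane lipids, had 321.6 and 56.3, a ratio of 5.71.

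Carbonic anhydrase (LOC100275493), which interconverts carbon dioxide and bicarbonate, was read by 2 members. Their WT signals were 224.3 and 223.4, and their D11 signals were 1.10 and 14.7, at control level. The transcript was at least 9.08-fold and at least 9.04-fold lower by these probe sets. They share a transcript cluster and are not independent readings. A further probe set of that cluster had 1545 in WT and 506.1 in D11, a ratio of 3.05. Another, with a WT signal under 150, had 86.9 and 25.9, a ratio of 3.35. Of the 15 probe sets for transcripts of photosynthesis, 10 had a WT signal of at least 150 and 0 were members. With 1.27% of all such probe sets being members, nothing is read from that count. As markers of leaf tissue, the 15 had summed signals of 29713 in WT and 28306 in D11. These sums are carried by the bright probe sets of light-harvesting proteins and the Rubisco small subunit, some of them for the same gene. Enzymes of C4 carbon fixation in that list were weaker. The brightest probe set of pyruvate orthophosphate dikinase (LOC542759) had 476.5 and 387.8, and another had 249.1 and 115.7, a ratio of 2.15. Phosphoenolpyruvate carboxylase (LOC542372) had 47.5 in WT and 13.4, at control level, in D11. The part of leaf tissue in the carbonic anhydrase values was not tested. The gene TMT (LOC732837) had 160.3 and 52.9, a ratio of 3.03.

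The 4 other names were a mixed set. ZmGR1b had 2103 in WT and 128.1 in D11, a ratio of 16.4, the second largest of those measured above the controls. The study's gene model places this probe set in LOC541620, which RefSeq names GR1a, while its other identifier points to another gene, so its gene is uncertain. A second probe set of LOC541620, named GR1a in the table of symbols, had 10133 and 6749, so that the 2 probe sets under this symbol differ widely in ratio. The gene GR2b (LOC100037738) had 1789 and 704.8, a ratio of 2.54. A Ser/Thr-rich protein T10 (LOC100280184) had 625.8 and 43.7, a ratio of 14.3. A transcript annotated as a retrotransposon of the SINE class (LOC100283216) had 333.8 and 55.9, a ratio of 5.97. LOC542182, known by clone names alone, had 1147 and 354.4, a ratio of 3.24. A second probe set of this gene had 58.3 and 27.8, a ratio of 2.09.

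The 7 putative uncharacterized proteins all had ratios of at least 5 by construction, since their annotation came from the study's list made by a 5-fold ratio. The brightest were LOC100192891 with 2766 in WT and 469.1 in D11, LOC100275045 with 2414 and 350.5, and LOC100304200 with 2299 and 349.5. Their ratios were 5.90, 6.89 and 6.58. LOC100275466 and LOC100274574 had ratios of 6.48 and 5.63. LOC100276902, with 303.0 and 23.0, was at least 12.3-fold lower, and LOC100285894, with 214.0 and 19.7, at least 8.66-fold lower. The last 2 were at control level in D11.

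Of the 88 members with no name, WT signals ran from 157.5 to 6654 and ratios from 3.02 to 6.36. Zm.3724.3.A1_a_at had 6654 in WT and 2058 in D11 (3.23), and Zm.7906.1.A1_at had 4731 and 1496 (3.16). Zm.5873.1.S1_at had 3557 and 1102 (3.23), Zm.17632.1.A1_at 3504 and 1088 (3.22), and Zm.1583.1.A1_x_at 3483 and 1075 (3.24). These were the 5 brightest in WT, and their ratios were nearly the same. The unnamed Zm.17679 at 6.36, Zm.7721 at 6.35 and Zm.2529 at 5.38 had the largest ratios of these 88 and were picked out after their values were seen.

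At the limit of the ratio, the members just inside were Zm.13944.4.S1_at with 1366 and 451.6 (3.02), ocl1 and TMT. Just outside were ZmAffx.71.1.A1_at with 1081 and 361.0, Zm.19219.1.A1_at with 677.3 and 226.4, and Zm.7016.2.A1_x_at with 2979 and 996.7, all at 2.99. At the limit of WT signal, ZmAffx.1095.1.S1_at (157.5 and 46.0), TMT and Zm.16860.1.A1_at (168.4 and 52.2) were inside. Zm.17357.1.S1_at (142.4 and 42.5), ZmAffx.117.1.A1_at (129.3 and 38.6) and Zm.17616.1.A1_at (123.5 and 41.1) were outside, with ratios of 3.35, 3.35 and 3.01. No gap in the values set the members apart at either limit.

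Other probe sets of the same transcript cluster, that is, with the same cluster number in the ID, offer a second reading of some members. They can stand for another stretch of the transcript, a splice form or a close relative. The 116 members fell into 113 clusters, and 23 of these held 46 further probe sets. Of the 22 with a WT signal of at least 150, 9 (40.9%, in 6 clusters) were at least 2-fold lower in D11, 13 differed by less than 2-fold and 0 were at least 2-fold higher. Over all probe sets with that WT signal, 406 (4.46%) were at least 2-fold lower. Cluster mates can bind the same transcript, so these are not independent of the values that chose the members.

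Clusters split into those that moved together and those that did not. In Zm.3724 the mate had 5731 in WT and 2006 in D11 (2.86) beside the member at 3.23. In Zm.1583 the mates had ratios of 2.25 and 2.37 beside the member at 3.24. In Zm.5715 both probe sets were members, with 1669 and 470.0 (3.55) and with 3207 and 1035 (3.10). In contrast, the member of Zm.16311, the cortical cell-delineating protein, had a mate with 3150 in WT and 3516 in D11. The uncharacterized LOC100192891 had a mate with 334.9 and 523.2. In Zm.1066 the member had 776.3 and 173.0, a ratio of 4.49, while its 4 mates had ratios from 0.963 to 1.14. In Zm.13944, the cluster of the beta-expansin gene expB8 (LOC542496), the member had a ratio of 3.02 and the brightest mates had 4957 and 5362, and 4783 and 4177. In these 4 clusters the lower signal was that of 1 probe set among its mates.

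**Figure D5:**
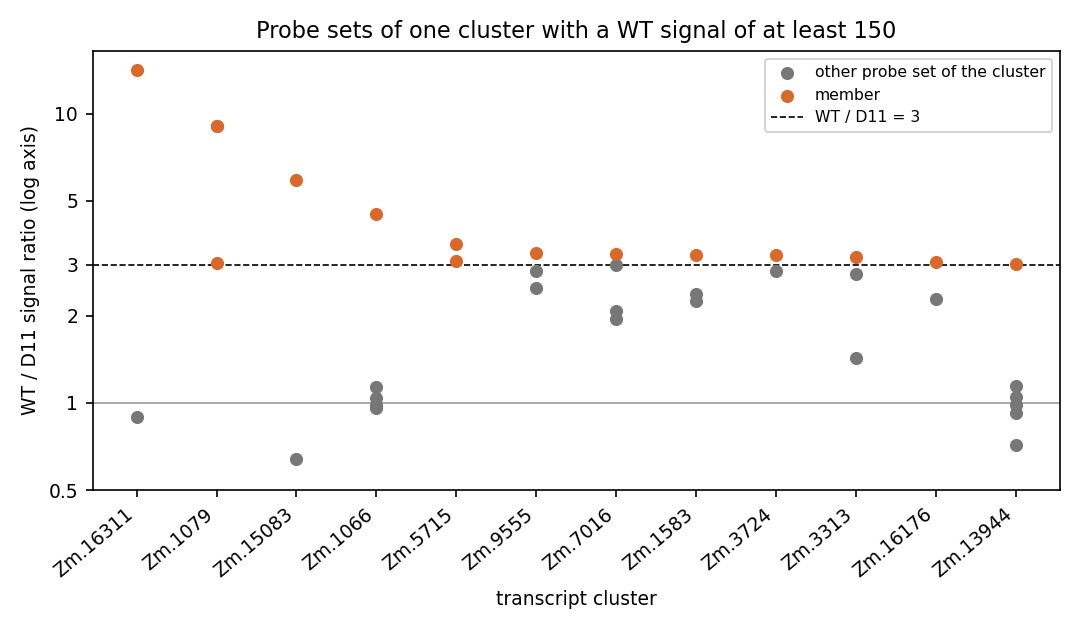
Ratio of WT to D11 signal (y axis, log) for members (orange) and other probe sets (grey) of the 12 transcript clusters that hold a member and a further probe set with a WT signal of at least 150. The grey points of Zm.16311, Zm.15083, Zm.1066 and Zm.13944 lie between 0.640 and 1.15, those of Zm.9555, Zm.7016, Zm.1583 and Zm.3724 between 1.95 and 2.99.

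Probe sets that can bind more than 1 transcript, marked _a, _s or _x, made up 12 of the 116 members (10.3%) and 15.97% of all probe sets with a WT signal of at least 150. Further lists held no member. These were 52 probe sets for redox and detoxification enzymes (24 with a WT signal of at least 150), 18 for cysteine proteases and cystatins (14) and 23 for hormone synthesis and perception (11). With a D11 signal of at least 150, 3, 0 and 2 of them were at least 3-fold higher in D11, beside 2.99% of all probe sets above that limit. Below that D11 signal, gst42, gst19, GST25 and ZmGA20ox1 were also at least 3-fold higher. ZmGA20ox1 (LOC778427) had 1.83 in WT, at control level, and 98.3 in D11. Of all probe sets with a WT signal of at least 150, 1.27% were members. Lists of this size need not hold any, and nothing is read from the absence of members. These lists cover the part of the array that has names.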

How the data were processed

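Total RNA of 1 WT and 1 D11 stem sample was hybridized to the Maize Genome Array. The authors deposited intensities from the MAS 5.0 algorithm, which summarizes each probe set and scales each array, and these were used as they stand, on a linear scale. GeneSpring is given in the methods, while MAS5 and Affymetrix Expression Console are given in the submitters' processing notes. Of 17734 probe sets, 113 AFFX and 66 RPTR controls were set aside. The floor of each array was the highest of 23 Tag and TrpnX controls, 24.7 in D11 and 27.6 in WT. The number of arrays limits the precision. Symbols from the probe-gene table and RefSeq (assembly Zm-B73-REFERENCE-NAM-5.0, for names alone) covered 1453 probe sets. Names of other members, but no values, came from the annotation of the study's gene list.

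The members, the function groups and the gene lists were chosen with earlier results of these data known. The text names up to 6 named members per function group by WT signal, the 15 named members with the highest WT signal and the 15 with the largest ratio. It also gives the 5 brightest unnamed members and 3 probe sets on either side of each limit. Other probe sets of a named member's cluster are given where their WT signal was above the controls. Relatives of the members were added with their values in view.

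Other settings tried were a minimum WT signal of 100 or 300, a fold of 2 or 5, no floor, a floor of 50, the floor added as an offset, median, quantile and lowess scaling, dropping the probe sets marked _a, _s or _x and counting each cluster once. The counting steps were tested on simulated data. Python 3.11.15, numpy 2.4.6, pandas 2.3.3, statsmodels 0.14.6 and matplotlib 3.10.9 were used.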

Additional observations from a re-analysis of the deposited data

How the results depend on the processing

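The count of 116 lower transcripts depended on the limits and on the scaling. It was 406 with a fold of 2, 27 with a fold of 5 and 185 with median scaling, and between 90 and 153 under the other settings (90 with the floor added as an offset, 153 with quantile normalization, 139 with lowess centring). Under all 3 scalings, 113 of the 116 remained. The ratio of WT to D11 stayed above 1 for all 116 under every scaling and floor tried. Members were chosen with a ratio of at least 3, so this outcome was nearly fixed in advance and adds no support. The gene lists held 5 lower probe sets as reported, 11 with a fold of 2 and 3 with a fold of 5. Ratios that rest on D11 signals at control level moved most. Those of the carbonic anhydrase probe sets were 205 and 15.2 with no floor, and 4.49 and 4.47 with a floor of 50. The cortical cell-delineating protein had 8.38 with the offset and 6.97 with a floor of 50. The ratio of T10, whose D11 signal of 43.7 was above the controls, also moved, from 14.3 to 9.50 with the offset. No paired analysis was possible because there was 1 array per genotype, and no array could be left out.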
